A study of Mus musculus with 12 samples.

Results

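The 43 imprinted genes described here are mouse genes whose 2 parental copies are usually not read alike, 15 of them known mainly for expression from the maternal copy and 24 from the paternal copy. The other 4 (Ddc, Blcap, Gnas and Inpp5f) were put in a class in which the copy depends on the transcript or the tissue. The maternal and paternal classes give the usual copy and do not say that it is the same in every tissue. They were chosen by symbol from a written list and matched by Ensembl gene identifier among 53465 genes measured in forelimb buds. All 43 were found. Which parental copy was read was not measured, so the words maternal and paternal are background knowledge and not a result.

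Imprinted genes lie in clusters on the chromosomes. In each cluster a control region is methylated on 1 parental copy and decides which genes are read from which copy. Many paternally expressed genes are known to promote embryonic growth and many maternally expressed ones to restrain it. In mesenchyme, genes such as H19, Igf2, Dlk1 and Cdkn1c are read strongly while tissues are built and are mostly lowered after birth.

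Forelimb bud RNA was sequenced in 12 libraries, 3 in each of 4 groups, and per the labels 1 replicate is the pair of forelimb buds of 1 Swiss albino embryo. The Tbx3 series has wild-type buds (Tbx3_WT) and buds homozygous for Tbx3ΔVenus (Tbx3_del), in which Venus and a signal that ends transcription sit at the start codon of both copies, at E9.75 to E10 (28 to 31 somites). The Hand2 series has Prrx1-Cre;Hand2Δ/Δc buds (Hand2_del) and Prrx1-Cre;Hand2+/+ buds (Hand2_WT) at E10 to E10.25 (31 to 33 somites). Both Hand2 groups carry the Cre, which Prrx1 sequences drive in limb mesenchyme. The Cre acts on the conditional copy (Δc) there, while the genotype gives the other Hand2 copy as Δ. Hand2 in cells of the bud without the Cre was not measured apart. TBX3 is a T-box repressor and HAND2 a bHLH factor, and both act in early limb patterning. For litters, the read strand and the parental origin of alleles, nothing was found in the sources.

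Library totals ran from 23.3 to 31.8 M counts (M is 1e+06) for Tbx3 libraries and from 60.2 to 68.6 M for Hand2 libraries. The gene Hand2 fell from 122 to 0.926 CPM (counts scaled to 1e+06 per library) in the Hand2-deficient buds. The mean level of the gene Tbx3 was 78.2 CPM for wild types and 77.7 CPM for the group labelled Tbx3-deficient (edgeR, adjusted p = 0.954). No fall was seen, although the allele is given with a signal that ends transcription at the start codon. The count thus does not bear out that label. The source of this was not tested, and these libraries are called by their label. Hand2-deficient replicate 1 had 5.37% of its counts on the gene CT010467.1. From Xist and Y-linked counts, all 3 Tbx3 wild-type embryos were female, as was deficient replicate 3, while deficient replicates 1 and 2 were male. In the Hand2 series, wild-type replicate 3 and deficient replicates 1 and 3 were male. The limb mesenchyme markers fixed for the check (Prrx1, Tbx5, Twist1, Msx1, Lhx2, Lhx9, Meis2 and Fgf10) were detected in every group, with summed levels from 1661 to 2484 CPM.

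Levels of the imprinted genes spanned a wide range in wild-type buds. On a scale per exon length (RPKM, CPM per kilobase of merged exons), H19, a long noncoding RNA, had the highest level of the 43, at 2192 RPKM in Tbx3 wild types and 2154 RPKM in Hand2 wild types. On the CPM scale H19 was at 5393 ± 553 and 5300 ± 134 CPM (mean ± SD, n = 3 each). Mest, which encodes a hydrolase-like protein of mesoderm, followed with 870 and 801 RPKM, and Igf2, the fetal growth factor, with 601 and 614 RPKM. Nnat, which encodes the membrane proteolipid neuronatin, was at 462 and 439 RPKM. Of these 4, H19 is maternally and the other 3 are paternally expressed, so high levels occurred in both classes. At the other end, both in the Kcnq1 cluster, stood Slc22a18, a transporter gene, at 0.182 and 0.168 RPKM, and the noncoding Kcnq1ot1 at 0.175 and 0.192 RPKM. The Kcnq1ot1 value is spread over a single gene model of 93092 bases. Of the merged Igf2 exons, 62.8% lie also in other gene models on the same strand, so part of its level depends on how reads were split between them.

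**Figure D1:**
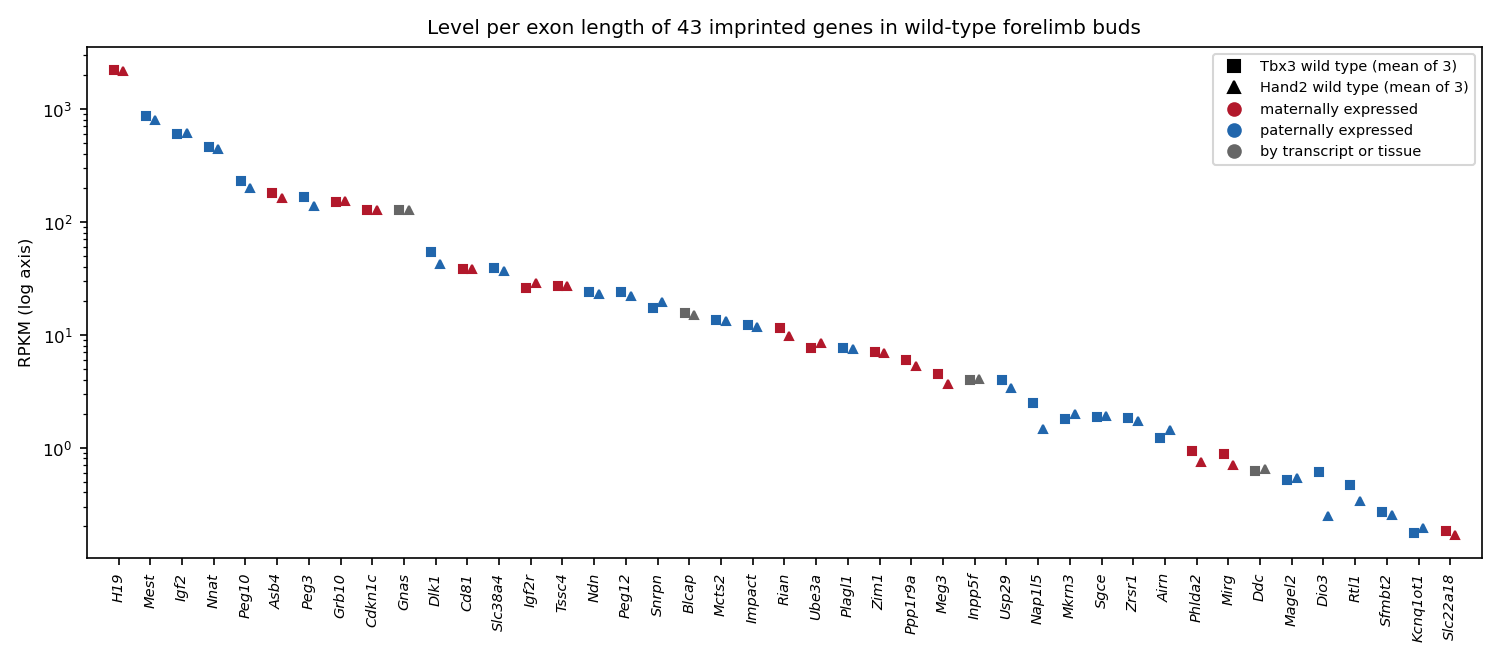
Level of each of the 43 imprinted genes per exon length (RPKM, log axis) in wild-type forelimb buds. Squares are means of 3 Tbx3 wild-type libraries, triangles are means of 3 Hand2 wild-type libraries, and colours give the parental class; H19 stands highest and Slc22a18 and Kcnq1ot1 lowest in both series.

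One library stood apart at imprinted genes and is described before the comparisons it enters. In Tbx3 wild-type replicate 1, Peg3, which encodes a zinc finger protein, was at 3136 CPM, against 1642 to 1792 CPM in the other 5 libraries of the series. Usp29, the gene of a deubiquitinase that starts next to Peg3 on the other strand, was at 110 CPM, against 49 to 65.9 CPM. Both are paternally expressed and stood 1.83 and 1.84 times above the mean of the other 5 libraries. Zim1, the maternally expressed zinc finger gene of the same cluster, stood 1.11 times above it, at 59.2 CPM, inside the range of the others.

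Genes around this cluster were looked at after these values were seen. The bounds of 6 and 20 Mb used here were also chosen after the ratios were seen, so the values for the stretch depend in part on that choice. Leaving imprinted members out, 84 genes that start between 6 and 20 Mb on chromosome 7 (GRCm38), each with a mean of at least 5 CPM, had a median ratio of 1.49 in this library to the mean of the other 5 (quartiles 1.37 and 1.56). In 79 of the 84 it had the highest value of the 6 libraries. The same median was between 0.893 and 0.934 in the other 5 libraries. It was 0.996 over the 724 remaining genes of chromosome 7 in wild-type replicate 1. Epn1, starting at 5.08 Mb, had a ratio of 1.02, and Zfp787, at 6.16 Mb, one of 1.64. At the far end Pvr, at 19.92 Mb, had a ratio of 1.23 and Gm10175, at 23.95 Mb, one of 0.879. Windows of 5 Mb holding at least 10 genes with such a mean were taken along the numbered chromosomes, without X and Y. Of these windows, 2 passed a median ratio of 1.3 in this library and 0 did in each of the other 11 libraries. The source of the ratio was not tested. Of 10789 genes with a mean of at least 5 CPM, 16 stood at least 1.5 times above every other library in this one. Peg3 and Usp29 were 2 of them. Most of the others also start in the stretch from 6 to 20 Mb: Apoe, Ccdc8, Ehd2, Gemin7, Napa, Ppp1r37, Ppp5c, Sae1, Strn4 and Zfp787. Col6a1, Ebf2, Gm20721 and Srp54b lie outside it. Among members with such a mean, none stood 1.5 times above or below the other 5 of its series in another library. Members with a lower mean were not looked at in this way. Ddc, for example, was at 6.25 CPM in Tbx3-deficient replicate 2, against 2.47 to 3.34 CPM in the other 5.

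**Figure D2:**
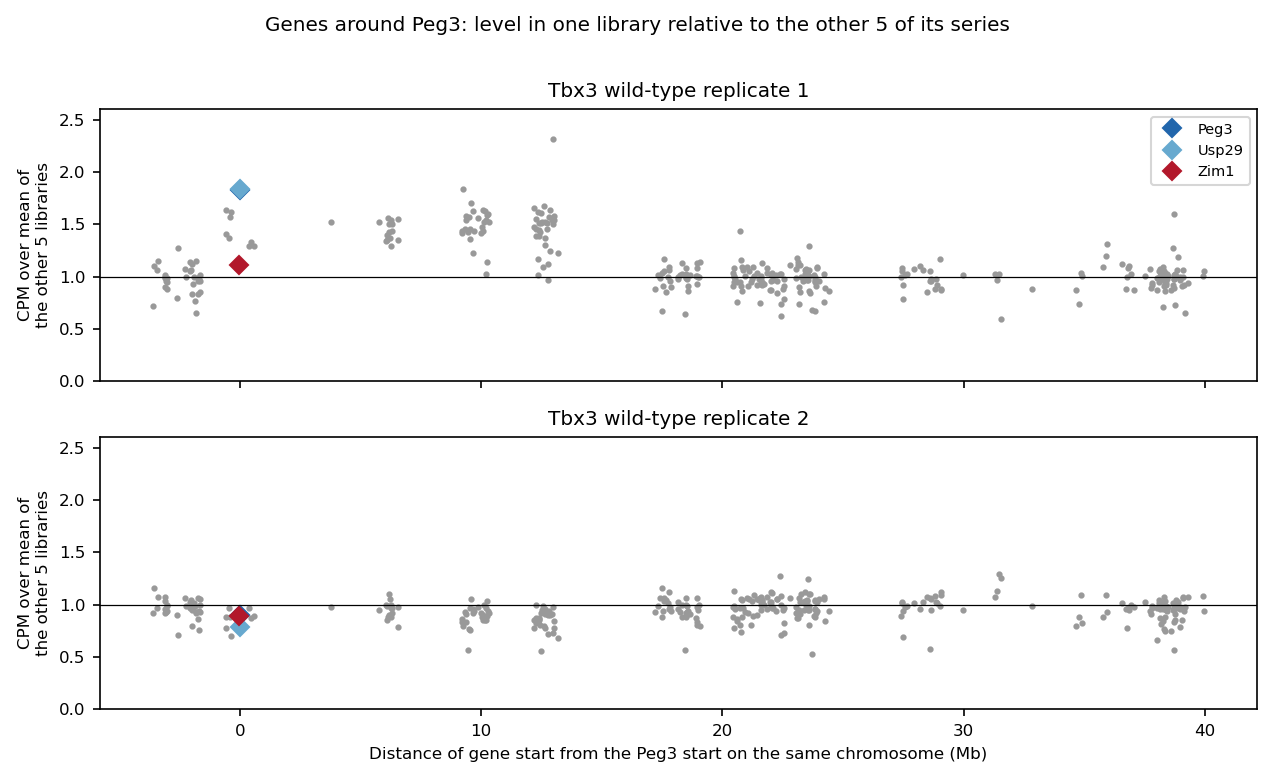
Level of each gene in one Tbx3 wild-type library divided by the mean of the other 5 libraries of its series, against the distance of the gene start from the Peg3 start in Mb. Grey points are other genes with a mean of at least 5 CPM and diamonds are Peg3, Usp29 and Zim1; in replicate 1 the points of a stretch of chromosome 7 lie near 1.5 with Peg3 and Usp29 above them, while in replicate 2 the same genes lie slightly under 1.

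The Tbx3 comparison asks which genes change where TBX3 is disrupted. Of 42 imprinted genes tested, 3 passed the test: Rian and Dlk1 were higher and Nap1l5 was lower in buds labelled Tbx3-deficient. Over all 15130 genes tested, 1.01% were called in either direction, 0.727% higher and 0.284% lower. The remaining member, Slc22a18, had too few counts to be tested. At an unadjusted p under 0.05 there were 9 members, beside 14.3% of all genes, and 10 members had groups that did not overlap, beside 20.6% of all genes. The median log2 fold change was 0.02 over the 42 members and -0.00 over all genes. By class, 1 of 14 maternally expressed members was called higher and 0 lower, 1 of 24 paternally expressed members higher and 1 lower, and 0 of the other 4. Without wild-type replicate 2 only the Nap1l5 call remained.

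Some summed marker levels differed between the Tbx3 groups. Of 10 hypoxia response genes 8 were called higher, beside 0.727% of all genes, and the list was chosen with earlier results of these data known. Their summed levels were 487 to 559 CPM in wild types and 892 to 1320 CPM in the buds labelled deficient. Summed levels of 6 somite markers were 60.2 to 62.0 CPM in wild types and 72.2 to 87.8 CPM in the others. The 8 macrophage markers summed to 1.78 to 4.46 CPM and 6.03 to 7.24 CPM, and the 7 neuron and neural crest markers to 91.8 to 100 CPM and 102 to 119 CPM. Within that last list the genes went both ways, with 2 of 4 tested above a log2 fold change of 0. Mean Ngfr was 37.3 CPM in wild types and 61.6 CPM in the others. Tubb3 went from 10.7 to 7.59 CPM and Dcx from 37.5 to 27.8 CPM. Markers of the body wall and coelomic lining, 7 genes, summed to 7.63 to 46.7 CPM in wild types and 46.3 to 93.2 CPM in the others. Limb mesenchyme markers summed to 1901 to 1976 CPM and 1661 to 1845 CPM. No marker of these lists was at 0 in all 3 libraries of a group, and their part in the results below was not tested. In such bulk samples, fewer cells of a type and less RNA per cell cannot be told apart.

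**Figure D3:**
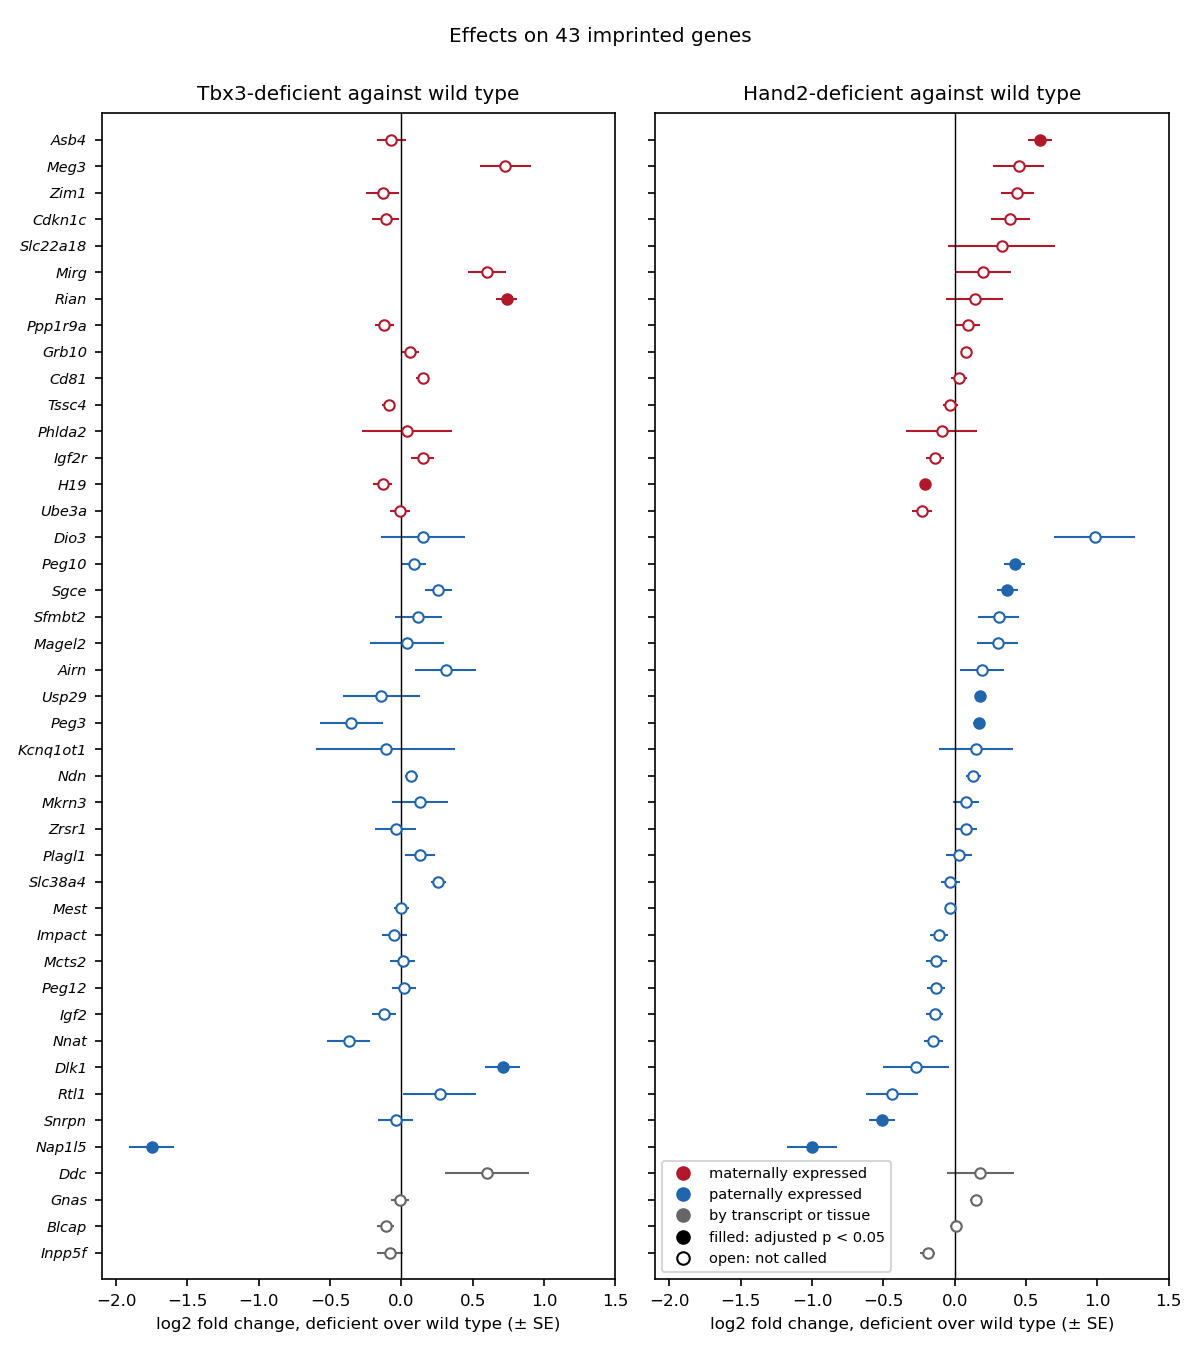
Log2 fold change (deficient over wild type, bars are ± 1 SE) of each imprinted gene in the Tbx3 comparison (left) and the Hand2 comparison (right), grouped by parental class and ordered by the Hand2 value. Filled points passed the adjusted p threshold of 0.05; Nap1l5 is filled on the negative side in both panels, and no other gene is filled in both.

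Nap1l5 was the member with the largest change, and the only one called in both comparisons, in the same direction. It is an intronless, paternally expressed gene for a nucleosome assembly protein-like factor (ENSMUSG00000055430, GRCm38 chromosome 6, 58905233 to 58907076, minus strand) and lies inside Herc3, a ubiquitin ligase gene. Wild-type replicates 1, 2 and 3 of the Tbx3 series had 4.65, 4.59 and 4.38 CPM, and the libraries labelled deficient had 1.38, 1.36 and 1.3 CPM. The 3 wild types lay together and the 3 others lay together far under them. These levels rest on 106 to 114 counts in the wild-type libraries and 34 to 43 counts in the others. The level was 3.37-fold lower, and its log2 fold change was -1.75 (SE 0.158, adjusted p = 0.00854), and the call was kept without any 1 of the 6 libraries. With embryo sex as a covariate the log2 fold change was -1.80 and the adjusted p 0.0819, a fit in which deficient replicate 3 is the only female of its group.

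In the Hand2 series Nap1l5 was at 2.89, 2.14 and 3.07 CPM in wild types and 1.32, 1.48 and 1.24 CPM in deficient buds. The groups did not overlap, and the spread among wild types was wider than in the Tbx3 series. The level was 2.00-fold lower, and its log2 fold change was -1.0 (SE 0.178, adjusted p = 0.024). It was lost without wild-type replicate 1 (adjusted p = 0.083) or 3 (0.0949), without deficient replicate 1 (0.073) or 3 (0.0774), and with embryo sex as a covariate (0.0551). The difference between the 2 effects, Hand2 minus Tbx3, was 0.75 and was not called (SE 0.221, adjusted p = 0.121). The host gene Herc3 had means of 5.96 CPM (wild type) and 5.35 CPM (labelled deficient) in the Tbx3 series, a log2 fold change of -0.16 (adjusted p = 0.653), and at 6.46 and 8.41 CPM in the Hand2 groups (0.38, adjusted p = 0.117). None of the 4 other genes tested within 500 kb of Nap1l5 was called in either comparison.

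The stretch before the Nap1l5 start is shown because the gene fell in both series. It comes from RefSeq (GRCm38.p6, chr6:58907127-58907376, minus strand) and ends at the base before the RefSeq start. That start lies upstream of the start of the gene model given above (58907076), so the 2 models differ. In capitals is the match to TGCCGC, the core motif of ZFP57, a zinc finger protein that keeps methylation at imprinted control regions.
Nap1l5: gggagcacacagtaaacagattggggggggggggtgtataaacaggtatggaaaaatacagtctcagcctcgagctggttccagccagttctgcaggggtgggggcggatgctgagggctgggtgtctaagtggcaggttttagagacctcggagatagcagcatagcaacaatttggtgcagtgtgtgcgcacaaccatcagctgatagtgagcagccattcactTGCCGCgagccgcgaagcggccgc
The match begins 24 bases before the RefSeq start, and another begins at base 28 of the RefSeq transcript, which is not printed. Both lie before the start of the gene model given above. Promoter windows of 300 bases, from 250 bases before to 50 bases after the start, were at hand for 37 of the 43 members (56 windows). TGCCGC, on either strand, was in 11 of these 56 windows (19.6%) and in 11.6% of all 32851 windows. The windows holding it belonged to 10 members: Grb10, Igf2, Mcts2, Meg3, Mest, Nap1l5, Nnat, Plagl1, Snrpn and Zim1. The T-box sequence AGGTGTGA was in 1 member window, that of Meg3 (1.79%, beside 1.28% of all windows), and the E-box CATCTG in 7 member windows (12.5%, beside 17.2%). Of the called members with a window, Asb4 and Rian had the E-box. These are matches of letters and not measured binding.

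In the Dlk1-Dio3 cluster on chromosome 12, 2 of 6 members were called higher in buds labelled Tbx3-deficient. The log2 fold changes of all 6 lay above 0, with a median of 0.66. Over all 15130 genes tested, 0.727% were called higher and 7436 had a log2 fold change above 0. The cluster is known for the paternally expressed coding genes Dlk1, Rtl1 and Dio3 and the maternally expressed noncoding genes Meg3, Rian and Mirg. Rian (ENSMUSG00000097451, 109603940 to 109661716, plus strand) makes a long RNA that carries small nucleolar RNAs and microRNAs. It was at 208, 208 and 207 CPM in the Tbx3 wild types and at 316, 385 and 339 CPM in the libraries labelled deficient. The wild types were nearly equal and every library labelled deficient lay well above them, the female replicate 3 included. Its log2 fold change was 0.74 (SE 0.0735, adjusted p = 0.00893). It was lost when wild-type replicate 2 was left out (adjusted p = 0.052) and with embryo sex as a covariate (adjusted p = 0.0819, log2 fold change 0.71).

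Dlk1 (ENSMUSG00000040856, 109452823 to 109463336, plus strand) encodes a transmembrane protein related to Notch ligands that restrains the maturation of fat and other mesenchymal cells. Its level was 367, 283 and 270 CPM in the Tbx3 wild types and 465, 560 and 478 CPM in the libraries labelled deficient. No library labelled deficient reached down to a wild type. Its log2 fold change was 0.71 (SE 0.125) with an adjusted p of 0.0496, at the edge of the threshold. The call was kept only without wild-type replicate 1 (0.0321) and ended without wild-type replicate 2 (0.16) or 3 (0.152) and without deficient replicate 1 (0.0612), 2 (0.16) or 3 (0.119). With embryo sex as a covariate its adjusted p was 0.365, with limma-voom 0.0513 and with RLE scaling 0.0503.

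The other noncoding genes of the cluster had fold changes of like size without passing the test. Meg3, a long noncoding RNA, was at 66.5, 71.9 and 102 CPM in wild types and 157, 112 and 131 CPM in the libraries labelled deficient (log2 fold change 0.73, SE 0.178, adjusted p = 0.122). Mirg, the host of a large microRNA group, was at 5.59, 6.41 and 7.30 CPM and at 10.0, 9.03 and 10.3 CPM (0.60, SE 0.136, adjusted p = 0.103). In both genes the groups did not overlap. The coding genes Rtl1, derived from a retrotransposon, and Dio3, whose enzyme inactivates thyroid hormone, had log2 fold changes of 0.27 (adjusted p = 0.688) and 0.15 (0.858), with overlapping groups.

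In the Hand2 series no member of this cluster was called. Rian was at 211, 190 and 129 CPM in wild types and 160, 229 and 197 CPM in deficient buds, and Dlk1 at 310, 237 and 163 CPM and at 164, 235 and 192 CPM. Both genes varied nearly as much within a group as over all 6 libraries. Their log2 fold changes were 0.14 (adjusted p = 0.648) and -0.27 (adjusted p = 0.462). Dio3 was at 0.698, 0.451 and 0.348 CPM in wild types and 0.883, 1.05 and 1.02 CPM in deficient buds (0.98, SE 0.281, adjusted p = 0.0666). Meg3 was at 68.6, 82.2 and 48.8 CPM and at 84.7, 85.5 and 103 CPM (0.45, adjusted p = 0.134), and Rtl1 at 2.63, 2.10 and 1.72 CPM and at 1.61, 1.61 and 1.54 CPM (-0.44, adjusted p = 0.147). These last 3 genes had groups that did not overlap, Rtl1 with the deficient buds below and the others with them above. The difference of effects, Hand2 minus Tbx3, was -0.97 for Dlk1 (adjusted p = 0.134) and -0.59 for Rian (adjusted p = 0.23), so neither difference passed the test.

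**Figure D4:**
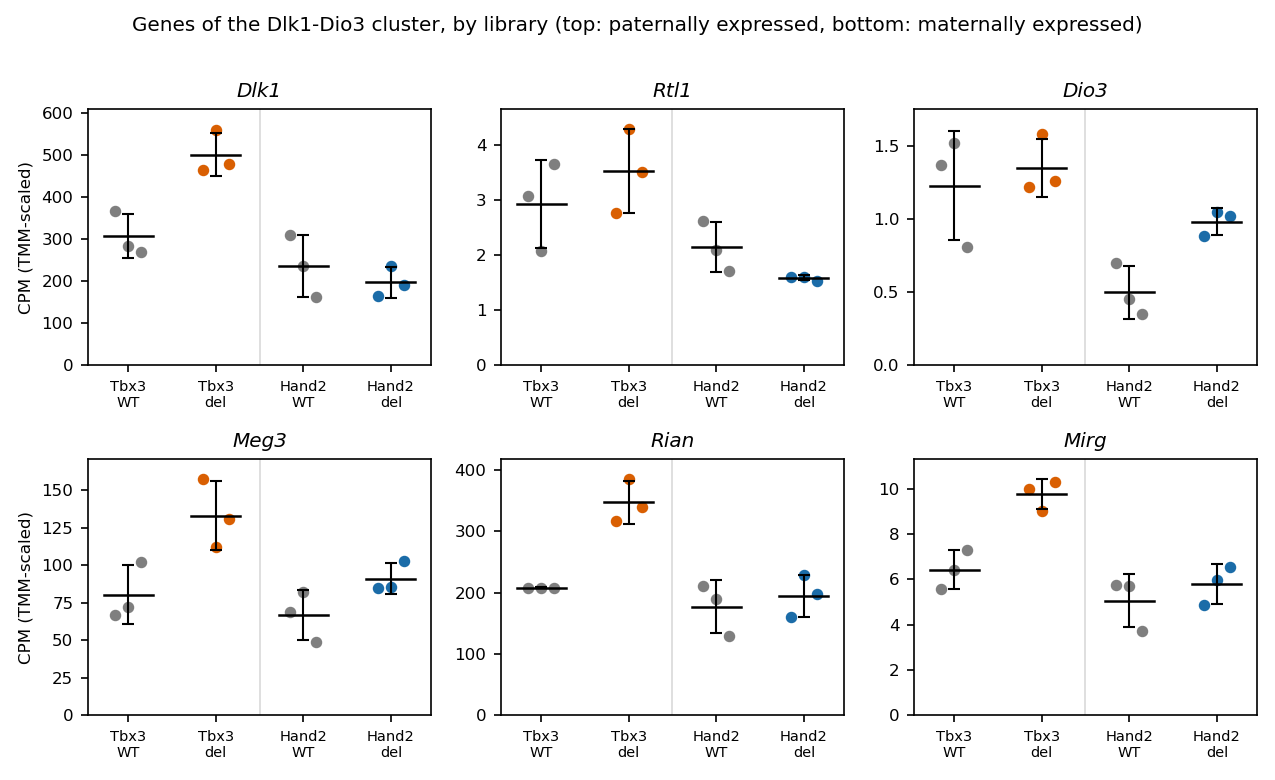
Level of each of the 6 genes of the Dlk1-Dio3 cluster in every library (CPM scaled by TMM within each series), with paternally expressed genes above and maternally expressed genes below; horizontal lines are means and vertical bars ± 1 SD of 3 libraries. In the Tbx3 series the orange points (labelled deficient) lie above all grey points (wild type) for Dlk1, Meg3, Rian and Mirg, while in the Hand2 series Dlk1, Rian and Mirg overlap.

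The microRNAs of Rian are shown because Rian had the smallest adjusted p of the cluster. The mature microRNAs themselves were not measured in these libraries. The hairpins, 3 in number, lie in the gene on its strand, and the mature sequences, from RefSeq (GRCm38.p6), have the seed (bases 2 to 8) in capitals.
miR-341-5p: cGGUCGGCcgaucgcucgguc
miR-341-3p: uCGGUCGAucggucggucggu
miR-1188-5p: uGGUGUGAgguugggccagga
miR-1188-3p: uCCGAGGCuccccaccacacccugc
miR-370-5p: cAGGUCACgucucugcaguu
miR-370-3p: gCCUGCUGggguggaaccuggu
No seed is shared among these. Mirg holds 14 hairpins on its strand and H19, Mest, Igf2, Usp29 and Rtl1 hold 1 each. Meg3 holds that of miR-770, and the mature miR-1906 lies in Meg3 as well, listed without a hairpin. Over the 45 mature microRNAs that lie in members on the same strand there were 44 seeds, and the only shared seed was that of miR-453 and miR-496a-5p, both in Mirg. Rtl1 has 6 more hairpins on the opposite strand, and 8.1% of its merged exons lie over genes of that strand, so without strand reads of either side cannot be told apart.

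Outside this cluster, Slc38a4, Cd81, Nnat and Sgce had an unadjusted p under 0.05 in the Tbx3 comparison and did not pass; the Sgce values stand with the Peg10-Sgce cluster. Slc38a4, a paternally expressed amino acid transporter gene, was at 168, 166 and 162 CPM in wild types and 188, 200 and 207 CPM in the libraries labelled deficient (log2 fold change 0.26, SE 0.0512, adjusted p = 0.0734). Cd81, a maternally expressed tetraspanin gene, was at 109, 108 and 114 CPM and at 121, 123 and 122 CPM (0.15, adjusted p = 0.186). Nnat was at 791, 816 and 929 CPM and at 743, 492 and 726 CPM (-0.37, adjusted p = 0.32). In Slc38a4, Cd81 and Nnat the groups did not overlap, Nnat with the wild types above. H19 and Igf2, which share enhancers, had log2 fold changes of -0.13 (adjusted p = 0.443) and -0.12 (adjusted p = 0.581).

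The Peg3 cluster is read in the Tbx3 series with and without wild-type replicate 1. With it, the log2 fold changes were -0.35 for Peg3 (adjusted p = 0.516), -0.14 for Usp29 (0.85) and -0.13 for Zim1 (0.671). Without it they were 0.00 for Peg3 (0.996), 0.32 for Usp29 (0.137) and -0.09 for Zim1 (0.853). No member of the cluster passed the test either way, and the Usp29 value changed sign.

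The Hand2 comparison asks which genes change where Hand2 is lost from limb mesenchyme. Of 43 imprinted genes tested, 8 passed the test: Asb4, Peg10, Sgce, Usp29 and Peg3 were higher and Nap1l5, Snrpn and H19 were lower in Hand2-deficient buds. Over all 17488 genes tested, 10.5% were called, 4.68% higher and 5.82% lower, so 8 of 43 is to be read against a high background. With upper-quartile scaling in place of TMM, 1047 genes were higher and 504 lower, against 818 and 1018, and 6 members were higher and 3 lower. At an unadjusted p under 0.05 there were 17 members, beside 32.4% of all genes, and 21 members had groups that did not overlap, beside 38.2%. The median log2 fold change was 0.08 over the members and 0.01 over all genes. Of 15 maternally expressed members 1 was called higher and 1 lower, of 24 paternally expressed members 4 higher and 2 lower, and 0 of the other 4. Single libraries decided the number: it was 3 without wild-type replicate 1, 1 without wild-type replicate 3, 1 without deficient replicate 1 and 2 without deficient replicate 3. With embryo sex as a covariate 1 member passed, Asb4.

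Some summed marker levels differed between the Hand2 groups too. Those of the body wall and coelomic lining, 7 genes, were 5.59 to 30.8 CPM in wild types and 23.8 to 55.8 CPM in deficient buds, with overlap. All 5 tested genes of that list had a log2 fold change above 0, and 1 was called higher, Gata4, from 0.570 to 4.98 CPM. Over all 17488 genes tested, 9103 lay above 0 and 4.68% were called higher. Limb mesenchyme markers summed to 1777 to 2002 CPM in wild types and 2085 to 2484 CPM in deficient buds. Of these 8 markers, 3 were called higher and 1 lower, Fgf10, from 40.1 to 26.2 CPM, beside 4.68% and 5.82% of all genes. The 7 endothelial markers summed to 279 to 280 CPM and 297 to 324 CPM, the 8 macrophage markers to 3.89 to 6.27 CPM and 7.23 to 14.1 CPM, and the 6 muscle progenitor markers to 104 to 120 CPM and 135 to 138 CPM. The 7 neuron and neural crest markers summed to 94.2 to 104 CPM and 109 to 121 CPM, and the 8 limb ectoderm markers to 278 to 305 CPM and 253 to 267 CPM. Of the 8 ectoderm markers 1 was called, Fgf8, lower from 44.3 to 26.3 CPM, beside 5.82% of all genes called lower. The median log2 fold change of that list was -0.04, with 2 of 8 above 0. Krt8, for example, was at 29.2 and 29.9 CPM and Epcam at 44.7 and 38.2 CPM. Among all lists fixed for the check, only the cardiac marker Nkx2-5 was at 0 in all libraries of a group. Their part in the results below was not tested.

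The Peg10-Sgce cluster of chromosome 6 held 3 of the 5 higher calls, and all 4 of its members had a log2 fold change above 0, with a median of 0.40. Over all 17488 genes tested, 4.68% were called higher and 9103 had a log2 fold change above 0. Asb4 (ENSMUSG00000042607, 5383386 to 5433022, plus strand), maternally expressed, encodes an ankyrin repeat and SOCS box protein, a substrate adaptor of ubiquitin ligases. It was at 572, 624 and 701 CPM in wild types and 1038, 906 and 933 CPM in Hand2-deficient buds. Every deficient library lay well above every wild type. Its log2 fold change was 0.60 (SE 0.0849, adjusted p = 0.0131), and the call was kept without any 1 of the 6 libraries and with embryo sex as a covariate (adjusted p = 0.0176). In the Tbx3 series Asb4 was at 802, 715 and 596 CPM in wild types and 702, 625 and 685 CPM in the libraries labelled deficient, with the deficient libraries inside the wild-type range (-0.07, SE 0.104, adjusted p = 0.8). The difference of the 2 effects was 0.67 (SE 0.150, adjusted p = 0.0486). Over all 17360 genes tested for a difference, 1.68% were called (0.789% with the larger value in the Hand2 comparison), and Asb4 was the only imprinted member. That call was kept in 2 of 12 fits without 1 library, those without Tbx3 or Hand2 wild-type replicate 3. It ended in the other 10, with adjusted p between 0.057 and 0.122, and with embryo sex as a covariate (0.0542).

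Peg10 (ENSMUSG00000092035, 4747306 to 4760517, plus strand), a paternally expressed gene derived from a retrotransposon and needed in the placenta, was at 1447, 1258 and 1269 CPM in wild types and 1918, 1752 and 1661 CPM in deficient buds. Sgce (ENSMUSG00000004631, 4674350 to 4747207, minus strand), paternally expressed as well, encodes epsilon-sarcoglycan and starts next to Peg10 on the other strand. It was at 19.1, 21.3 and 20 CPM in wild types and 25.2, 24.8 and 28.1 CPM in deficient buds. In both genes every deficient library lay above every wild type. The log2 fold change of Peg10 was 0.42 (SE 0.0737, adjusted p = 0.0225) and that of Sgce 0.37 (SE 0.0742, adjusted p = 0.0322). The Peg10 call ended without wild-type replicate 3 (0.0931), without deficient replicate 1 (0.0621) and with the sex covariate (0.053). The Sgce call ended without wild-type replicate 1 (0.101) or 3 (0.113), without deficient replicate 1 (0.0767) or 3 (0.0804) and with the sex covariate (0.0711). In the Tbx3 series their log2 fold changes were 0.09 (adjusted p = 0.663) and 0.26 (0.258), the latter with 19.8, 17.2 and 21.7 CPM in wild types and 23.6, 24.3 and 22.5 CPM in the others, without overlap. Ppp1r9a, the fourth member and the gene of an actin-binding phosphatase regulator, had log2 fold changes of 0.09 in the Hand2 and -0.12 in the Tbx3 comparison and was not called. Of 6 other genes tested within 500 kb of Peg10, 1 was called higher in the Hand2 series, the collagen gene Col1a2 (281 and 583 CPM, log2 fold change 1.05, adjusted p = 0.0202).

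**Figure D5:**
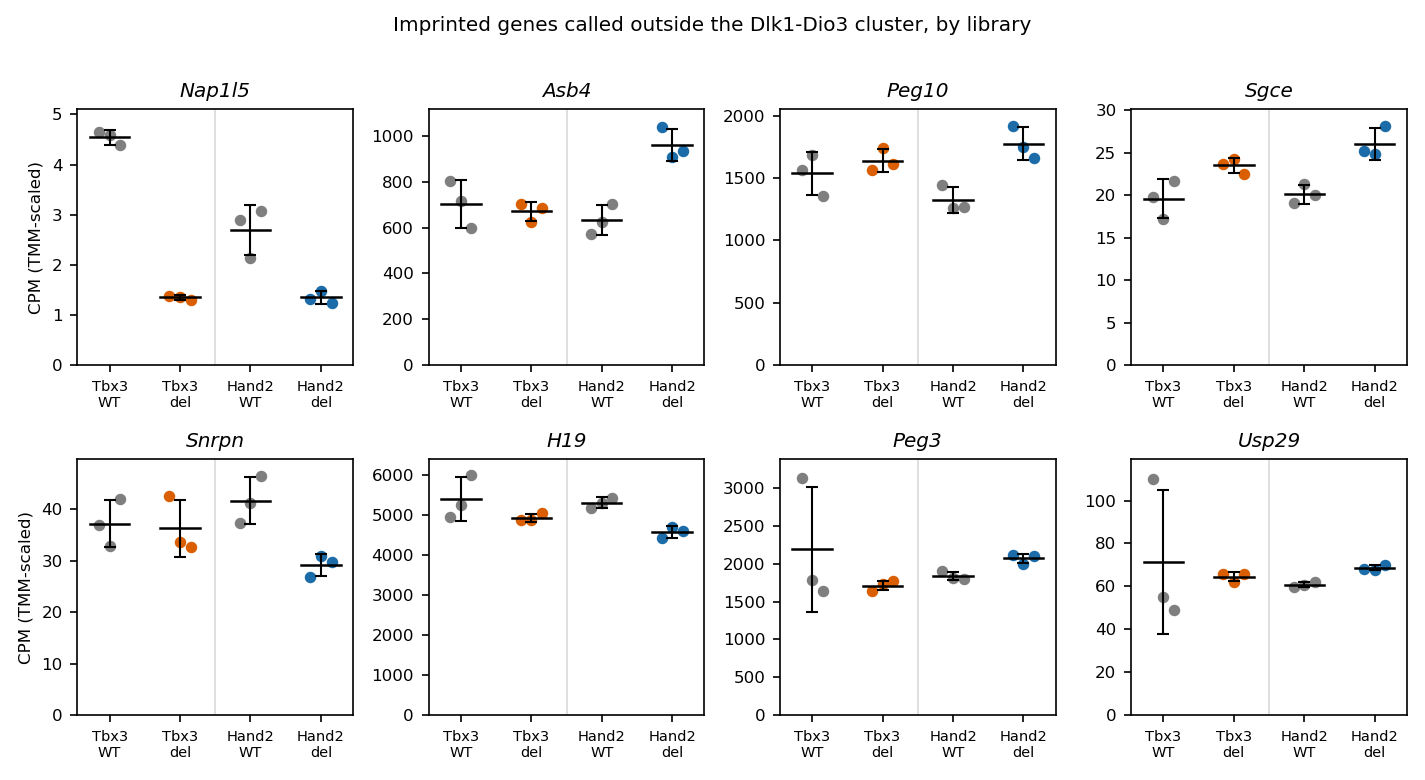
Level in every library (CPM scaled by TMM within each series) of the 8 called imprinted genes outside the Dlk1-Dio3 cluster, with means and ± 1 SD of 3 libraries. Nap1l5 is lower in the deficient group of both series, Asb4, Peg10 and Sgce are higher and Snrpn and H19 lower in Hand2-deficient buds, and Tbx3 wild-type replicate 1 stands alone at the top for Peg3 and Usp29.

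In the Peg3 cluster 2 of 3 members were called higher in Hand2-deficient buds, by small amounts, beside 4.68% of all genes called higher. Usp29 (ENSMUSG00000051527, chromosome 7, 6730578 to 6967219, plus strand) was at 59.7, 60.7 and 62.1 CPM in wild types and 68.3, 67.7 and 70.1 CPM in deficient buds. Peg3 (ENSMUSG00000002265, 6703892 to 6730431, minus strand) was at 1904, 1814 and 1806 CPM and at 2116, 1999 and 2104 CPM. The groups did not overlap in either gene, and replicates lay close together. The log2 fold changes were 0.18 for Usp29 (SE 0.0309, adjusted p = 0.0227) and 0.17 for Peg3 (SE 0.0394, adjusted p = 0.0423). The Peg3 call ended without each of the 6 libraries in turn: wild-type replicate 1 (0.0959), 2 (0.0671) or 3 (0.15), or deficient replicate 1 (0.122), 2 (0.0534) or 3 (0.113). It also ended with embryo sex as a covariate (0.0909) and without the low-count filter (0.0615). The Usp29 call ended without wild-type replicate 1 (0.0985) or 3 (0.0901), without deficient replicate 1 (0.0598) or 3 (0.0844), and with the sex covariate (0.0638). Zim1 was at 58.9, 58.6 and 47.8 CPM in wild types and 68.2, 69.0 and 86.8 CPM in deficient buds. It did not pass the test although its groups did not overlap and its log2 fold change was 0.44 (SE 0.117, adjusted p = 0.056).

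Peg3 and Usp29 start 163 bases apart on opposite strands, and the stretch between both RefSeq starts is shown because both genes stood out together in 1 library and were called together in the Hand2 series. It is given on the Peg3 strand (GRCm38.p6, chr7:6730420-6730582, minus strand) and holds no match to any of the 3 motifs, so no base is in capitals.
Peg3: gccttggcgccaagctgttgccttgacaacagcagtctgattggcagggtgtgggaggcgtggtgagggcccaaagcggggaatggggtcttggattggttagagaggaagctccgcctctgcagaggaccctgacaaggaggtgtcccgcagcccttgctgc
The full window of 300 bases held 13 CpG dinucleotides, the sites at which DNA is methylated, for Peg3 and 17 for Usp29. The median was 12.5 CpG per window over members and 7.0 over all windows.

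Snrpn and H19 were the other members called lower in Hand2-deficient buds. Snrpn (ENSMUSG00000102252, chromosome 7, 59982495 to 60140219, minus strand), paternally expressed, encodes a spliceosomal Sm protein found mostly in neurons. It was at 37.4, 41.2 and 46.4 CPM in wild types and 26.8, 31.0 and 29.8 CPM in deficient buds. All deficient libraries lay under all wild types. The log2 fold change was -0.51 (SE 0.0910, adjusted p = 0.0239), and the call ended without wild-type replicate 3 (0.0763), without deficient replicate 1 (0.0669) or 3 (0.0682) and with the sex covariate (0.0506). Of its merged exons 37.3% lie in other gene models on the same strand, Snurf among them. Snurf, counted by itself, was at 4.68 and 3.22 CPM (-0.54, adjusted p = 0.0414). In the Tbx3 series Snrpn had a log2 fold change of -0.04 (adjusted p = 0.913).

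H19 (ENSMUSG00000000031, chromosome 7, 142575529 to 142578143, minus strand), maternally expressed, is the host of miR-675. It was at 5162, 5309 and 5430 CPM in wild types and 4418, 4707 and 4588 CPM in Hand2-deficient buds. The 2 groups did not overlap, and the change was small beside the level. The log2 fold change was -0.21 (SE 0.0357, adjusted p = 0.0206). The call ended without wild-type replicate 1 (0.0679) or 3 (0.0898), without deficient replicate 1 (0.0595) or 3 (0.0637) and with the sex covariate (0.0547). Igf2, the paternally expressed partner of H19, was at 3268, 3637 and 3638 CPM and at 3384, 3188 and 3011 CPM, with overlapping groups (-0.14, SE 0.0594, adjusted p = 0.16).

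Further members had an unadjusted p under 0.05 in the Hand2 series and did not pass. Gnas, the gene of the stimulatory G protein alpha subunit, was at 1363, 1462 and 1411 CPM in wild types and 1625, 1530 and 1552 CPM in deficient buds (log2 fold change 0.15, adjusted p = 0.061). Inpp5f, which encodes a phosphoinositide phosphatase, was at 33.0, 33.4 and 33.7 CPM and at 27.8, 29.0 and 31.1 CPM (-0.19, adjusted p = 0.0697). Ube3a, the gene of a ubiquitin ligase, was at 185, 161 and 177 CPM and at 138, 159 and 148 CPM (-0.23, adjusted p = 0.0771). The groups did not overlap in these 3 genes. Of the merged Ube3a exons 27.3% lie opposite other gene models, and 22.0% of those of Gnas.

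Cdkn1c, maternally expressed, encodes the cell cycle inhibitor p57. It was at 221, 314 and 248 CPM in Hand2 wild types and 376, 303 and 346 CPM in deficient buds (0.39, SE 0.137, adjusted p = 0.103). Wild-type replicate 2 lay above deficient replicate 2, so its groups overlapped. Ndn, the necdin gene of the Snrpn cluster, was at 81.2, 90.4 and 82.7 CPM and at 92.9, 97 and 89.3 CPM (0.13, adjusted p = 0.124), also with overlap. Grb10, a maternally expressed adaptor that restrains insulin and IGF signalling, was at 1390, 1401 and 1335 CPM and at 1429, 1476 and 1467 CPM without overlap (0.08, adjusted p = 0.158).

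The remaining 18 members passed the test in neither comparison. They are Igf2r, Airn, Mest, Kcnq1ot1, Phlda2, Slc22a18, Tssc4, Ddc, Plagl1, Zrsr1, Ppp1r9a, Magel2, Peg12, Mkrn3, Blcap, Impact, Mcts2 and Sfmbt2. In the Tbx3 comparison 17 of them were tested, with log2 fold changes from -0.12 to 0.60 and a smallest adjusted p of 0.419. In the Hand2 comparison their log2 fold changes ran from -0.14 to 0.33, with a smallest adjusted p of 0.17. Mest, at 3433 ± 212 and 3422 ± 89.0 CPM in the Tbx3 groups and 3159 ± 60.4 and 3099 ± 36.8 CPM in the Hand2 groups (mean ± SD, n = 3), had a log2 fold change of -0.00 and -0.03. Igf2r, the receptor that clears IGF2, was at 238 and 264 CPM in the Tbx3 groups (0.15, adjusted p = 0.455) and at 266 and 241 CPM in the Hand2 groups (-0.14, adjusted p = 0.17). Mcts2, which lies inside H13, was at 12.1 and 11.1 CPM in the Hand2 groups (-0.13, adjusted p = 0.259), while H13 itself was called higher, from 67.6 to 82.6 CPM (0.29, adjusted p = 0.0378).

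Genes that work with the imprinted members were counted from lists written for this purpose. Of 16 genes known to set or keep imprints, 0 of 13 tested were called in the Tbx3 comparison by edgeR (3 at an unadjusted p under 0.05, beside 14.3% of all genes). Among these 13, Trim28 lies in the chromosome 7 stretch raised in Tbx3 wild-type replicate 1. It was at 1854 CPM there and at 1145 to 1305 CPM in the other libraries of the series. In the Hand2 comparison 1 was higher and 4 were lower of 14, beside 4.68% and 5.82% of all genes. Zfp57 rose from 28.2 to 34.3 CPM (log2 fold change 0.28, adjusted p = 0.0285), and Dnmt3b, a DNA methyltransferase, fell from 74.6 to 55.4 CPM (-0.43, adjusted p = 0.00319). Uhrf1, which guides methylation to copied DNA, fell from 462 to 399 CPM (-0.21, adjusted p = 0.0334), Smchd1 from 196 to 173 CPM (-0.18, adjusted p = 0.0495) and the Polycomb gene Eed from 86.2 to 73.9 CPM (-0.22, adjusted p = 0.0292).

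Of 16 genes of the IGF pathway, 0 of 15 tested were called in the Tbx3 comparison by edgeR (3 at an unadjusted p under 0.05, beside 14.3% of all genes). In the Hand2 comparison 2 were higher and 3 lower of 15, beside 4.68% and 5.82% of all genes. The binding protein gene Igfbp5 rose from 411 to 603 CPM (0.55, adjusted p = 0.0194) and the protease gene Htra1 from 1.40 to 2.44 CPM (0.80, adjusted p = 0.0404). The insulin receptor gene Insr fell from 65.4 to 50.6 CPM (-0.37, adjusted p = 0.00657), the adaptor gene Irs1 from 38.6 to 23.4 CPM (-0.72, adjusted p = 0.00827) and Igfbp4 from 731 to 619 CPM (-0.24, adjusted p = 0.0257). The ligand Igf2 and the receptor Igf2r, both imprinted, passed in neither comparison. Of 32 further imprinted genes outside the 43, 0 of 21 tested were called in the Tbx3 comparison by edgeR (3 at an unadjusted p under 0.05, beside 14.3% of all genes). In the Hand2 comparison 2 of 24 were higher and 0 lower, beside the same shares of all genes. These were H13 and Zdbf2, the latter from 75.8 to 88.7 CPM (0.23, adjusted p = 0.0115). The median log2 fold changes of the 3 lists in the Hand2 comparison were -0.10, -0.03 and 0.18, beside 0.01 over all genes.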

How the data were processed

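The deposited values are RSEM expected counts, 1 per Ensembl gene and library, per the file headers and the labels. The submitters' processing notes name FastQC 0.11.4, STAR 2.5.2, RSEM 1.3.0 and mm10. Per the labels' protocols, RNA of integrity number 8.0 or more was read single-end at 85 bp with a NextSeq 500 instrument. Strand and annotation release were not stated there. Symbols, coordinates and exon lengths came from GENCODE M21, which matched 53360 of the 53465 identifiers (105 without).

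Expected counts were rounded, and edgeR 4.0.16 (R 4.3.3) fitted each series by itself. Genes were kept by filterByExpr with a minimum count of 10 and a minimum total of 15, libraries were scaled by TMM, and p-values of the quasi-likelihood F test were adjusted by Benjamini-Hochberg across the genes kept. The threshold for a call was an adjusted p of 0.05. A log2 fold change compares deficient with wild-type buds (prior count 0.125), and dividing its size by the square root of F gives its SE. Levels in CPM use the TMM scaling within a series. The difference of effects came from a 4-group fit of all 12 libraries. Tested on simulated data, the fit recovered 70% of 2-fold and 89% of 4-fold changes with 12 false calls in the Tbx3 comparison (15130 genes), and 65% and 94% with 6 false calls in the Hand2 comparison (17488 genes), of 100 genes changed at each fold.

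Values per library are given for members called, members at an unadjusted p under 0.05 in either comparison, and the best expressed members of each class per cluster, at most 25. Members and gene lists were chosen with earlier results of these data known. Replicates are single embryos with no litter given. Alternatives were DESeq2 1.42.0, limma-voom (limma 3.58.1), other scalings, no filter, a replicate block, embryo sex as a covariate and leaving out each library.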

Additional observations from a re-analysis of the deposited data

Results flagged for a closer look

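The effect on Asb4 differed between both series by the test of the difference itself. The log2 fold change in the Hand2 comparison minus that in the Tbx3 comparison was 0.67 (edgeR, SE 0.150, adjusted p = 0.0486). Gene lost, kind of allele, stage and depth differ together between the series, so these cannot be told apart as the source of a difference. The call ended in 10 of 12 fits without 1 library, as given above.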

How the results depend on the processing

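No result changed direction while called. Over all genes the Tbx3 comparison called 153 with edgeR, 550 with DESeq2, 99 with limma-voom, 504 without the low-count filter, 22 with embryo sex as a covariate, and 23 to 220 when 1 library was left out. Imprinted members called were 3, against 5 with DESeq2, 5 without the filter, 2 with limma-voom and 2 with RLE scaling. They were 0 with the sex covariate in edgeR and 1 to 3 without 1 library. In that sex covariate fit 7 members had an unadjusted p under 0.05, beside 1241 of all 15130 genes. The Hand2 comparison called 1836 genes, 3492 with DESeq2, 526 with the sex covariate and 218 to 2223 without 1 library, and its members called were 8, against 14, 1 and 1 to 10. Upper-quartile scaling moved its split from 818 higher and 1018 lower to 1047 and 504. The difference of effects called 292 genes, 878 with DESeq2 and 123 to 336 without 1 library. Its members called were 1, against 3 with DESeq2, 0 with limma-voom, RLE scaling or the sex covariate, and 0 to 1 without 1 library. With limma-voom, RLE scaling and the sex covariate, 11, 11 and 12 members had an unadjusted p under 0.05. Over all 17360 genes tested for the difference, 2918, 3040 and 2963 did.

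With the replicate number as a block, 87 genes and 2 members were called in the Tbx3 comparison. In the Hand2 comparison 161 genes and 1 member were called (Peg10, adjusted p = 0.0333, while Asb4 had 0.0808). For the difference in edgeR 69 genes and 0 members were called. In that fit 11 members had an unadjusted p under 0.05, beside 2272 of all 17360 genes. Deviations from the group means correlated between same-numbered libraries by 0.074, 0.013 and -0.008 (Tbx3) and -0.128, 0.031 and 0.027 (Hand2). With 3 libraries per group, these values cannot decide whether same-numbered libraries share more than a number. Tbx3 replicate 1 and Hand2 replicate 2 alone correlated best with their own number. Of the called members, Nap1l5 had the fewest counts, 34 to 114 per library in the Tbx3 series.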
